A study of Mus musculus with 6 samples.

Results

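The results concern 9 genes of the mitochondrial apoptosis pathway, taken by symbol from a gene table of embryonic mouse cortex: the prosurvival genes *Bcl2l1*, *Bcl2* and *Mcl1*, the effector genes *Bax* and *Bak1*, the BH3-only genes *Bcl2l11*, *Bad* and *Bbc3*, and the caspase gene *Casp9*. All 9 were found, each as a single row, among 59484 features of the table, of which 23505 carry a symbol. The study asked what the joint loss of the RNA-binding proteins Sam68 (gene *Khdrbs1*) and SLM2 (gene *Khdrbs3*) does to the cortical transcriptome. At E18.5, polyA-selected RNA of the cortex was sequenced from 3 wild-type samples and 3 samples labelled as knockout for both genes (*Sam68*:*Slm2* double knockout, dKO). The paper lists wild-type and dKO animals together as C57BL/6 mice. Both knockouts are carried in the germline and so are not limited to a cell type or stage. The dKO animals came from *Sam68*+/-:*Slm2*-/- parents, a cross that gives no wild-type embryos, so genotype and litter cannot be told apart. The labels do not say whether a library is 1 embryo or a pool, and the *P*-values measure the spread between these libraries.

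In the mitochondrial pathway, the effectors BAX and BAK1 open the outer mitochondrial membrane, and prosurvival proteins such as Bcl-xL (encoded by *Bcl2l1*), BCL2 and MCL1 hold them in check. BH3-only proteins respond to stress or loss of trophic support by binding prosurvival proteins, and cytochrome c released from mitochondria then activates caspase-9 on APAF1. In the developing cortex this pathway removes progenitors and young neurons, and *Bcl2l1* is a well-known splicing target of Sam68, which affects the choice between the long, prosurvival Bcl-xL and the short, proapoptotic Bcl-xS.

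The 8 BCL2 family genes share the BH3 motif, the short helix through which the proteins bind one another, and it is shown because it is the feature that groups them. The sequences were read from the GENCODE M21 coding transcripts (GRCm38, the same assembly as mm10), 30 bases of the coding strand each, with an 18-base core in capitals that encodes leucine, 3 residues of any kind, a small residue (glycine, alanine or serine) and aspartate.
Bcl2l1, chr2:152829700-152829729, minus strand: caagcgCTGAGAGAGGCAGGCGATgagttt
Bcl2, chr1:106712578-106712607, minus strand: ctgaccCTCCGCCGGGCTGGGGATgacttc
Mcl1, chr3:95659430-95659459, plus strand: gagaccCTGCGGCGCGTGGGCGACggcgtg
Bax, chr7:45466000-45466029, minus strand: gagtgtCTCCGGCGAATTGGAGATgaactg
Bak1, chr17:27022534-27022563, minus strand: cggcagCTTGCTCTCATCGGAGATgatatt
Bcl2l11, chr2:128147144-128147173, plus strand: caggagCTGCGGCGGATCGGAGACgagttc
Bad, chr19:6950786-6950815, plus strand: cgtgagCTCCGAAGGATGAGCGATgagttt
Bbc3, chr7:16313767-16313796, plus strand: gcccagCTGCGGCGGATGGCGGACgacctc

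Each of these stretches lies inside 1 coding exon. The small residue is glycine in all of them except *Bad*, which has serine, and *Bbc3*, which has alanine. The leucine is codon 90 of 233 in *Bcl2l1*, codon 63 of 192 in *Bax* and codon 141 of 193 in *Bbc3*. The pattern is short: read in frame, it occurs in 34.0% of 21633 coding genes, and *Casp9*, which has no BH3 domain, holds 1 match as well.

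For *Bcl2l1*, the annotated coding transcripts also part at the end of exon 2. The sequence around this point is shown because the gene counts analysed here do not separate the transcripts. Both lines are on the minus strand of chromosome 2, lower case marks the last 15 bases of exon 2 (up to position 152829427), and capitals mark the 15 bases that follow in the transcript.
Bcl2l1, spliced: gagaacggcggctggGACACTTTTGTGGAT
Bcl2l1, read-through: gagaacggcggctggGTAAGAACCACGCCC

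The first transcript is spliced to an exon that begins at position 152782282 and encodes 233 codons, whereas the second reads on into the intron and encodes 209. The table holds 1 count per gene and library, so no value below separates Bcl-xL from Bcl-xS. Which bases of the gene were counted is not given in the sources used here. The junction of Bcl-xS lies at an upstream splice site inside exon 2, and neither sequence above shows it.

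The labels were checked on the targeted genes. *Khdrbs1* fell from 8213 ± 232 normalized counts (mean ± SD, n = 3) in wild-type to 152 ± 41.5 in dKO cortex, and *Khdrbs3* from 13841 ± 1252 to 6652 ± 366 (limma adjusted *P*-values 1.08e-07 and 0.000855), with no overlap between genotypes. Part of the *Khdrbs3* count thus remained in dKO, and which part of the gene the allele removes is not given in the sources used here. A normalized count is the number of reads divided by the DESeq2 size factor of its library. The libraries held from 31837922 to 40896541 reads in features, and all 8 cortical projection neuron markers were detected in all of them, with summed levels of 96674 to 128380.4 normalized counts in wild-type and 107946 to 140999.6 in dKO. In both libraries numbered 1 the deviation of a gene from its mean over the 6 libraries rose with exonic length (Spearman's rho across 13974 features with a matched length 0.219 in wild-type 1 and 0.311 in dKO 1), whereas rho lay between -0.225 and -0.102 in the other 4.

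For none of the 9 genes did the difference between genotypes pass the test. On log2(normalized count + 1), limma gave 0 of 9 at an adjusted *P*-value under 0.05, where 19 of 18970 features tested (0.1%) passed, 0.0527% higher and 0.0474% lower in dKO. At an unadjusted *P*-value under 0.05 it gave 0 of 9 as well, where 11.5% of features passed, 4.92% higher and 6.58% lower. The count models edgeR and DESeq2, fitted to the recovered reads, also called 0 of 9, against 0.0843% and 1.06% of all features. The genotypes did not overlap in 1 of the 9, *Bak1*, against 16.4% of all features, 7.89% higher and 8.48% lower in dKO. With 3 libraries against 3, values without overlap cannot go under an exact permutation *P*-value of 0.1.

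The 95% intervals of the main fit describe the change in bulk abundance of each gene taken alone, not of all of them jointly. In dKO relative to wild-type cortex the fold changes ranged from 0.842 for *Bak1* to 1.13 for *Bad*, and the intervals of the 9 genes together reached from 0.704-fold to 1.32-fold. Of the 9 log2 fold changes, 7 lay above 0 and 2 below, with a median of 0.08. Of all features tested, 50.6% lay above 0, and their median was 0.0036. The tissue is a mixture of cell types, and in bulk RNA fewer cells of a type and less RNA per cell cannot be told apart.

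**Figure D1:**
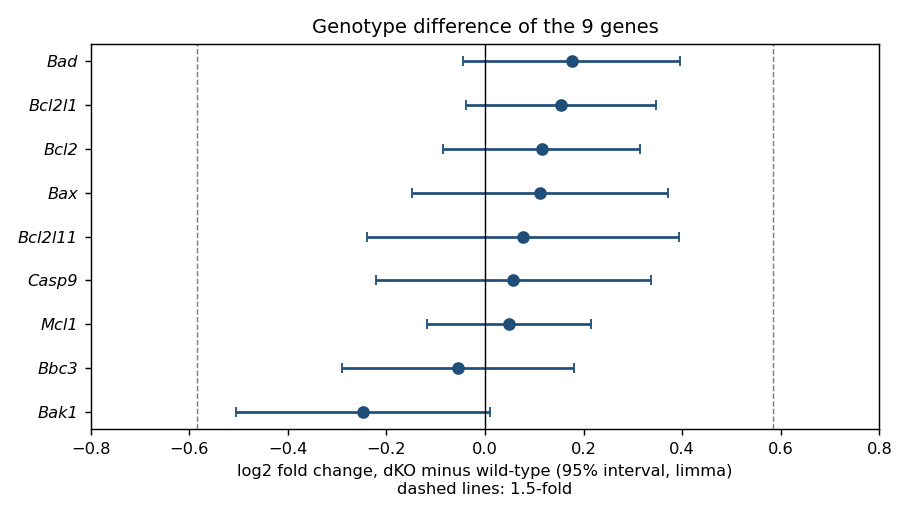
The log2 fold change of each of the 9 genes, dKO minus wild-type, is plotted with its 95% interval from limma (3 libraries per genotype), and dashed lines mark 1.5-fold in either direction. All 9 intervals cross 0 and lie inside the dashed lines. *Bak1*, at -0.25, is lowest and *Bad*, at 0.18, is highest.

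Among the prosurvival genes, *Bcl2l1* (chr2:152758732-152831728 in mm10, the build of all positions given for the table) gave 2473, 2662 and 2614 normalized counts in wild-type 1, 2 and 3, and 3067, 2601 and 2973 in dKO 1, 2 and 3. The dKO 1 and dKO 3 values were above all wild-type values, and dKO 2 lay among them. The means were 2583 ± 98.2 and 2880 ± 247 (SD, n = 3 each), and the log2 fold change was 0.15 (SE 0.087, limma adjusted *P* = 0.514), or 1.11-fold with a 95% interval of 0.974 to 1.27. Without dKO 2 the log2 fold change was 0.23 (limma unadjusted *P* = 0.0313, adjusted *P* = 0.370), and without dKO 1 it was 0.11 (limma adjusted *P* = 0.678). *Bcl2l1* is also used by red cell precursors. The summed level of 5 erythroid markers was 26367 to 32634 normalized counts in the wild-type libraries and 27621 to 37590 in the dKO libraries, with none of the 5 at 0, and their part in the *Bcl2l1* values was not tested.

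*Bcl2* (chr1:106538176-106714290), the founding prosurvival gene of the family, gave 1759, 1530 and 1713 normalized counts in the wild-type libraries and 1901, 1816 and 1693 in the dKO libraries. The dKO 1 and dKO 2 values stood above the wild-type range and dKO 3 within it, and the difference was 0.11 on the log2 scale (SE 0.090, 95% interval -0.09 to 0.31, limma adjusted *P* = 0.639). Without wild-type 2, the lowest library, it was 0.05.

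*Mcl1* (chr3:95658721-95663176), whose short-lived protein supports the survival of cortical progenitors, gave 8453, 8771 and 7832 normalized counts in wild-type and 8786, 8368 and 8735 in dKO. The genotypes overlapped, and wild-type 3 was the lowest of the 6 libraries. Its log2 fold change was 0.05 (SE 0.075, limma adjusted *P* = 0.823), and the 95% interval, from -0.12 to 0.21, was the narrowest of the 9 genes. Without wild-type 3 the value was 0.0028.

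Of the effectors, *Bax* (chr7:45461695-45466898), required for most apoptosis of developing neurons, gave 3752, 4198 and 3865 normalized counts in wild-type and 3485, 4557 and 4835 in dKO. The dKO libraries spread around the wild-type range, with dKO 1 below it and dKO 2 and dKO 3 above it, and the dKO coefficient of variation of 16.6% was the highest of the 9 genes. Between genotypes the log2 fold change was 0.11 (SE 0.117, 95% interval -0.15 to 0.37, limma adjusted *P* = 0.731). *Bax* is the shortest of the 9 genes, with 1576 exonic bases. Without dKO 1, the library with the highest correlation of deviation and exonic length, the *Bax* log2 fold change was 0.25 (limma unadjusted *P* = 0.0120, adjusted *P* = 0.277). Without dKO 3, the library with the highest *Bax* value, it was 0.02 (limma adjusted *P* = 0.986). With all 6 libraries, each corrected for length, it was 0.09 (limma adjusted *P* = 0.668).

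*Bak1* (chr17:27019810-27028627), the other effector, gave 605, 565 and 601 normalized counts in wild-type and 529, 527 and 440 in dKO. Every dKO library was below every wild-type library. The means were 590 ± 21.9 and 499 ± 51.1 (SD, n = 3 each), and the log2 fold change was -0.25 (SE 0.117, 95% interval -0.51 to 0.01, limma unadjusted *P* = 0.0585, adjusted *P* = 0.450). The value stayed negative in all alternative fits, from -0.16 (without dKO 3) to -0.29 (without dKO 1), and its adjusted *P*-value did not fall below 0.376. Across the table, 8.48% of features had every dKO library below every wild-type library.

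Of the BH3-only genes, *Bcl2l11* (chr2:128126037-128162550), which encodes BIM, gave 423, 536 and 460 normalized counts in wild-type and 557, 524 and 420 in dKO. The 2 ranges almost coincided, and the log2 fold change was 0.08 (SE 0.144, 95% interval -0.24 to 0.39, limma adjusted *P* = 0.854). *Bcl2l11* had the widest interval of the 9 genes.

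*Bad* (chr19:6941855-6951905), whose protein is held inactive by phosphorylation downstream of growth factors, gave 1973, 1837 and 2078 normalized counts in wild-type and 1967, 2241 and 2466 in dKO. The dKO 2 and dKO 3 values were above the wild-type range, and dKO 1 was inside it. The means were 1963 ± 121 and 2224 ± 250.05 (SD, n = 3 each), and the log2 fold change was 0.18 (SE 0.0996, 95% interval -0.04 to 0.40, limma adjusted *P* = 0.514). As with *Bax*, the difference was larger without dKO 1, at 0.26 (limma unadjusted *P* = 0.0190, adjusted *P* = 0.327), and smaller without dKO 3, at 0.0989 (limma adjusted *P* = 0.873).

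*Bbc3* (chr7:16309583-16318334), which encodes the p53 target PUMA, gave 2312, 1875 and 2329 normalized counts in wild-type and 2054, 2278 and 1928 in dKO. All 3 dKO values lay inside the wild-type range, and the log2 fold change was -0.05 (SE 0.106, 95% interval -0.29 to 0.18, limma adjusted *P* = 0.862).

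*Casp9* (chr4:141793612-141815978), the initiator caspase of this pathway, gave 497, 519 and 635 normalized counts in wild-type and 600, 524 and 587 in dKO. Here too the dKO values lay inside the wild-type range, and the log2 fold change was 0.06 (SE 0.126, 95% interval -0.22 to 0.34, limma adjusted *P* = 0.882). Leaving out 1 library turned the sign for *Bcl2l11*, *Bbc3* and *Casp9*.

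**Figure D2:**
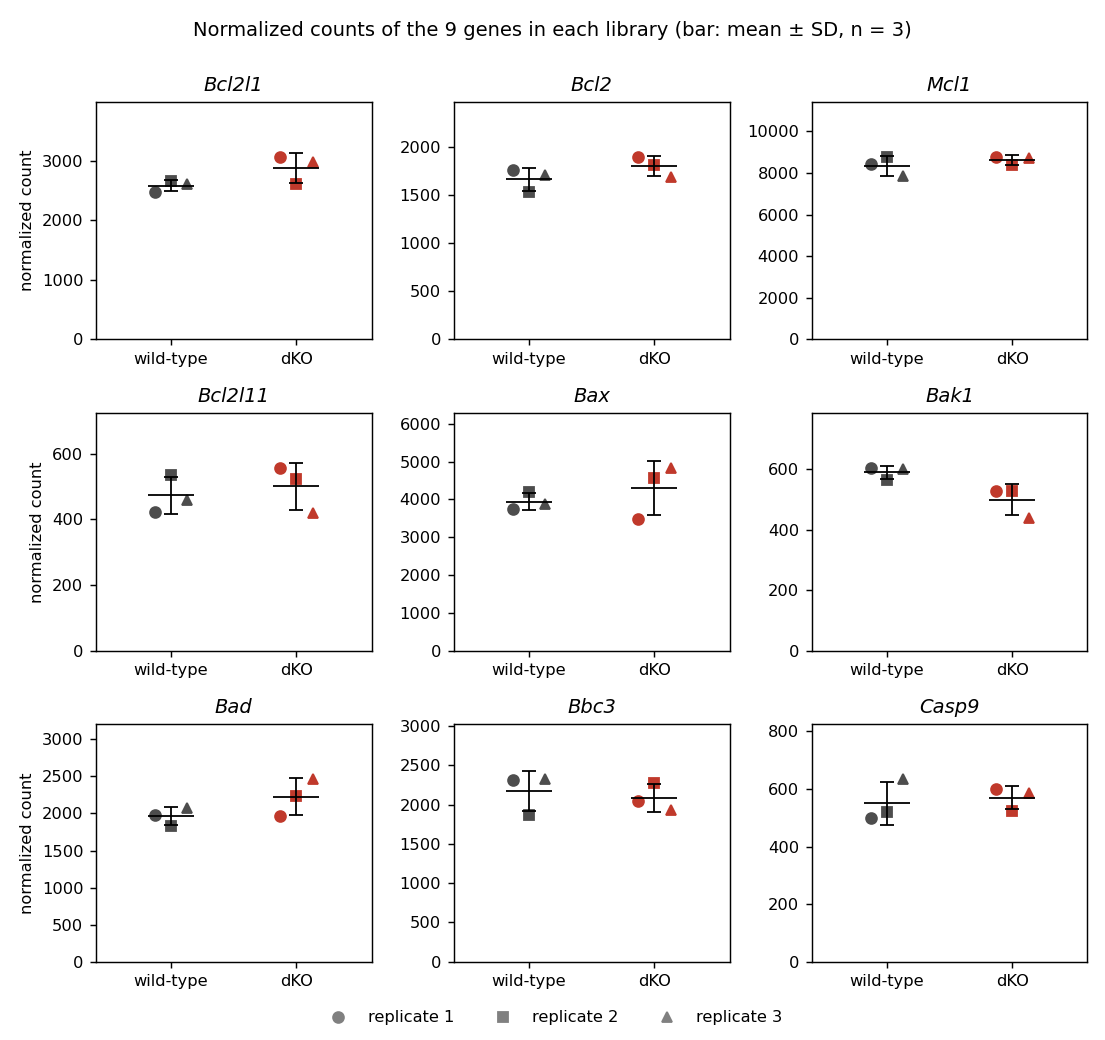
Each panel plots the normalized count of 1 gene in the 3 wild-type (gray) and 3 dKO (red) libraries, with the mean ± SD as a bar and the replicate number as the symbol. The axes start at 0. The genotypes overlap in 8 of the 9 panels, and in the *Bak1* panel all dKO points (440 to 529) lie below all wild-type points (565 to 605).

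Per length, the 9 genes covered a 43.1-fold range of levels. Counts were divided by the exonic length of the GENCODE gene to compare genes with one another. *Bax*, with 2611 ± 325 normalized counts per kb (mean ± SD over the 6 libraries), and *Mcl1*, with 2484 ± 107, were at the top and their ranges overlapped. Below them, with no overlap, came *Bbc3* at 1002 ± 95.5 and *Bad* at 818 ± 88.6, which overlapped each other. *Bcl2l1* followed at 596 ± 51.0 per kb, below every *Bad* value.

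At the lower end, *Bak1* at 226 ± 25.4 and *Bcl2* at 190 ± 13.7 normalized counts per kb overlapped each other and lay below every *Bcl2l1* value. *Casp9* at 108 ± 10.5 per kb was below both, and *Bcl2l11* at 60.6 ± 7.47 per kb was the lowest of the 9 in every library. Of the effectors, *Bax* was thus counted at a higher level per kb than *Bak1* in all 6 libraries, and of the prosurvival genes *Mcl1* was above *Bcl2l1* and *Bcl2l1* above *Bcl2*. A level per kb depends on the transcript ends the annotation holds, so neighbors in this order that are close are not ranked here.

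**Figure D3:**
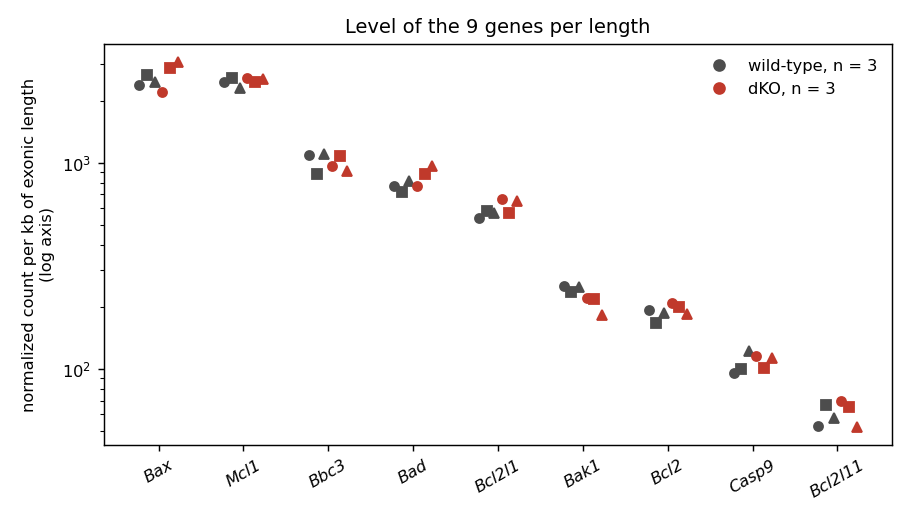
The normalized count per kb of exonic length is plotted on a log axis for each gene in the wild-type (gray) and dKO (red) libraries, with circles, squares and triangles for replicates 1, 2 and 3. From left to right the mean over the 6 libraries goes from 2611 for *Bax* to 60.6 for *Bcl2l11*.

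As a description of the balance between the roles, counts were summed per library. The sums were not divided by exonic length, so the size of a ratio does not compare the levels of the roles. *Mcl1*, with a mean of 8491 normalized counts over the 6 libraries, was the largest part of the prosurvival sum. *Bax*, with a mean of 4115, was the larger part of the effector sum. The log2 ratio of the summed prosurvival genes to the summed effectors was 1.54, 1.44 and 1.45 in wild-type 1, 2 and 3 and 1.78, 1.33 and 1.35 in dKO 1, 2 and 3. The mean was 1.48 in both genotypes, with an SD of 0.056 in wild-type and 0.254 in dKO, and dKO 1 was the highest and dKO 2 the lowest library. The near-equal means rested on dKO 1: without it the difference was -0.139, and the remaining dKO values lay below every wild-type value. The log2 ratio of the prosurvival genes to the BH3-only genes was 1.45 ± 0.146 in wild-type and 1.47 ± 0.123 in dKO (SD, n = 3 each). Both ratios overlapped between genotypes.

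Single libraries deviated from the mean in different genes. *Bax* deviated from its mean over the 6 libraries by -0.23 on the log2 scale in dKO 1 and by 0.24 in dKO 3. *Bad* moved likewise, from -0.08 in dKO 1 to 0.24 in dKO 3, whereas *Bak1* was at its lowest, -0.30, in dKO 3. The 3 longest genes, *Casp9*, *Bcl2l11* and *Bcl2*, were each above their mean in dKO 1, by 0.10, 0.20 and 0.13. In wild-type 1, the other library with a positive relation to length, *Casp9* and *Bcl2l11* were below their mean, by -0.17 and -0.19.

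**Figure D4:**
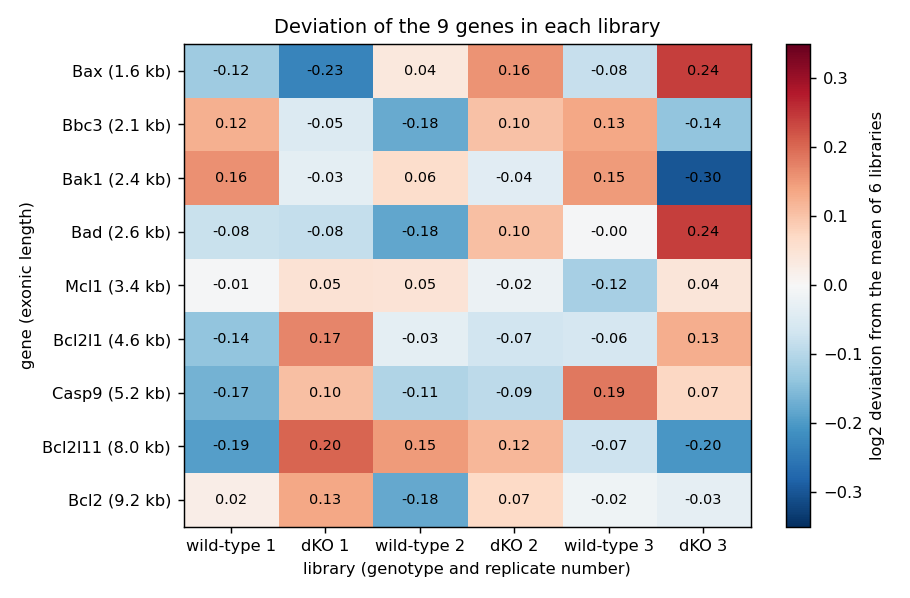
Rows are the 9 genes in order of exonic length, columns are the 6 libraries in pairs of equal replicate number, and each cell gives the deviation of the log2 normalized count from its mean over the 6 libraries. *Bax*, the shortest gene, goes from -0.23 in dKO 1 to 0.24 in dKO 3, and the color does not divide by genotype except in the *Bak1* row.

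Other features were counted at the same loci. The table holds 18 of them within or across the spans of 6 of the 9 genes, and none at *Mcl1*, *Bcl2l11* and *Bax*. Of the 18, 13 have no symbol and 5 were at 0 in all libraries, and of the 6 that could be tested 0 were called. An unnamed feature at the 5′ end of *Bcl2l1* (chr2:152830790-152832519) gave 24.7, 18.3 and 18.4 normalized counts in wild-type and 13.6, 6.27 and 5.80 in dKO. It did not overlap between genotypes, at a log2 fold change of -1.24 (SE 0.50, limma unadjusted *P* = 0.0319, adjusted *P* = 0.396). This feature was singled out after its values were seen.

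At the other end, the *Bcl2l1* row of the table runs past the 3′ end of the GENCODE gene and overlaps *Cox4i2*, a cytochrome oxidase subunit gene, which gave 39.4 to 97.3 normalized counts. *Bak1* lies inside a feature listed as *Zbtb9* // *Ggnbp1*, which gave 957 to 1093 normalized counts with a log2 fold change of 0.06 (SE 0.091). *Bad* overlaps *Gpr137*, which gave 238 to 352 normalized counts (log2 fold change -0.19, SE 0.157), and an unnamed feature that gave 13.6 to 38.7 (log2 fold change -0.83, SE 0.411). Neither passed the test. An unnamed feature that spans *Bbc3* gave 62.6 to 103 normalized counts. How reads were shared between overlapping features is not given in the sources used here, so the counts of these genes may hold reads of their neighbors, or lack some of their own.

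The features closest in profile to *Bcl2l1* were picked on these same 6 libraries, so their likeness to it follows from the choice. Whether they vary with *Bcl2l1* in other samples was not tested. Among 12732 features with a symbol and a mean of at least 50, the smallest root mean square differences of the centered log2 values were those of *Elavl2* (0.0233), *Pus10* (0.0240) and *Fxr2* (0.0261), against a spread of 0.111 in *Bcl2l1* itself. *Elavl2*, which encodes a neuronal RNA-binding protein, gave 2735, 2945 and 2918 normalized counts in wild-type and 3526, 2839 and 3279 in dKO. By this choice *Elavl2* shared with *Bcl2l1* the high values in dKO 1 and dKO 3. Its genotype difference did not pass the test (log2 fold change 0.16, SE 0.093, limma adjusted *P* = 0.526).

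The rest of the pathway was read from 43 other apoptosis genes in 7 role groups. All 43 were in the table and 38 reached the mean of 10 normalized counts needed for the test. Limma called 0 of 38 at an adjusted *P*-value under 0.05, as did edgeR and DESeq2, and 3 of 38 had an unadjusted *P*-value under 0.05, against 11.5% of all features. The latter count was 0 without wild-type 3, 1 without dKO 1 or dKO 3 and 6 without wild-type 2. Of the 38 log2 fold changes, 19 lay above 0 and 19 below, with a median of -0.0064. Without overlap between genotypes, 1 of the 38 was higher and 2 were lower in dKO, against 7.89% and 8.48% of all features.

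Among other prosurvival genes, *Bcl2a1b*, a family member of blood and immune cells, gave 17.1, 17.2 and 21.04 normalized counts in wild-type and 7.26, 8.37 and 2.32 in dKO, which are 16 to 24 and 2 to 8 reads. Every dKO library was below every wild-type library (log2 fold change -1.61, SE 0.58, limma unadjusted *P* = 0.0184, adjusted *P* = 0.370). *Bcl2a1b* has near-identical copies between which reads can be split. Of these, *Bcl2a1a* was at 0 in all libraries and *Bcl2a1d* was above 0 in 1 library only, so the value is uncertain. The summed level of 5 microglia markers was 1576 to 2201 in wild-type and 1655 to 1924 in dKO, with none at 0 and overlap between genotypes, and its part in *Bcl2a1b* was not tested. *Bcl2l2*, which encodes BCL-W, had a log2 fold change of 0.14 (SE 0.099).

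The other effector gene, *Bok*, had a log2 fold change of -0.13 (SE 0.110). All 4 tested genes of the other BH3-only group lay below 0, and all but *Pmaip1* did so by less than their standard error. *Pmaip1*, which encodes the p53 target NOXA, was the lowest at -0.45 (SE 0.266). None of the 4 passed at a limma unadjusted *P*-value under 0.05. Among the apoptosome and caspase genes, 5 of 7 lay above 0, from *Casp8*, the initiator of the death receptor route, at -0.31 (SE 0.261) to *Casp2* at 0.18 (SE 0.135).

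Of the IAP genes and their antagonists, *Birc5*, which encodes survivin and acts mainly in cell division, had the highest log2 fold change, 0.30 (SE 0.158, limma adjusted *P* = 0.494), and *Htra2*, which encodes a mitochondrial protease that antagonizes IAP proteins, the lowest, -0.17 (SE 0.147). Beside *Birc5*, the summed level of 6 proliferation markers did not overlap, with 7738 to 8837 normalized counts in wild-type and 10065 to 10212 in dKO. Of these 6 genes, 3 had a limma unadjusted *P*-value under 0.05, against 11.5% of all features, 0 passed after adjustment and none was at 0. The largest part of the sum was *Pcna*, with means of 4194 in wild-type and 4875 in dKO. The part of these genes in the *Birc5* value was not tested. At an earlier embryonic stage the paper reports reduced proliferation of progenitors, measured by immunostaining. At E18.5, the stage of these libraries, it reports fewer SOX2-positive cells and, in dKO only, significantly fewer TBR2-positive progenitors. Intermediate progenitor markers (3 genes, that of TBR2 included) summed to 1550 to 2540 normalized counts in wild-type and 2478 to 3527 in dKO, with overlap. All 3 log2 fold changes lay above 0, and 0 passed after adjustment. Stained cells and bulk RNA are unlike measures, and their relation was not tested. In the death receptor group, *Fas* had the highest log2 fold change, 0.47 (SE 0.529), at 10.9 to 47.1 normalized counts, and *Tnfrsf10b* the lowest, -0.31 (SE 0.330).

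In the p53 group, 2 genes had an unadjusted *P*-value under 0.05, in opposite directions. *Cdkn1a*, the cell cycle inhibitor p21, gave 650, 541 and 994 normalized counts in wild-type and 480, 542 and 513 in dKO (log2 fold change -0.46, SE 0.192, limma adjusted *P* = 0.402). Its genotypes overlapped, and wild-type 3 stood far above the other 5 libraries. Without it the log2 fold change was -0.21 (limma unadjusted *P* = 0.155, adjusted *P* = 0.770). *Trp53inp1*, a stress-induced p53 cofactor, gave 325, 337 and 296 in wild-type and 450, 334 and 470 in dKO (log2 fold change 0.37, SE 0.154, limma adjusted *P* = 0.400), with dKO 2 inside the wild-type range. *Phlda3*, a p53-induced inhibitor of AKT, was named after its values were seen because it did not overlap: 495 to 547 normalized counts in wild-type and 407 to 457 in dKO (log2 fold change -0.23, limma adjusted *P* = 0.476). It was 1 of 2 among the 38 tested genes that lay lower in dKO without overlap, against 8.48% of all features.

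**Figure D5:**
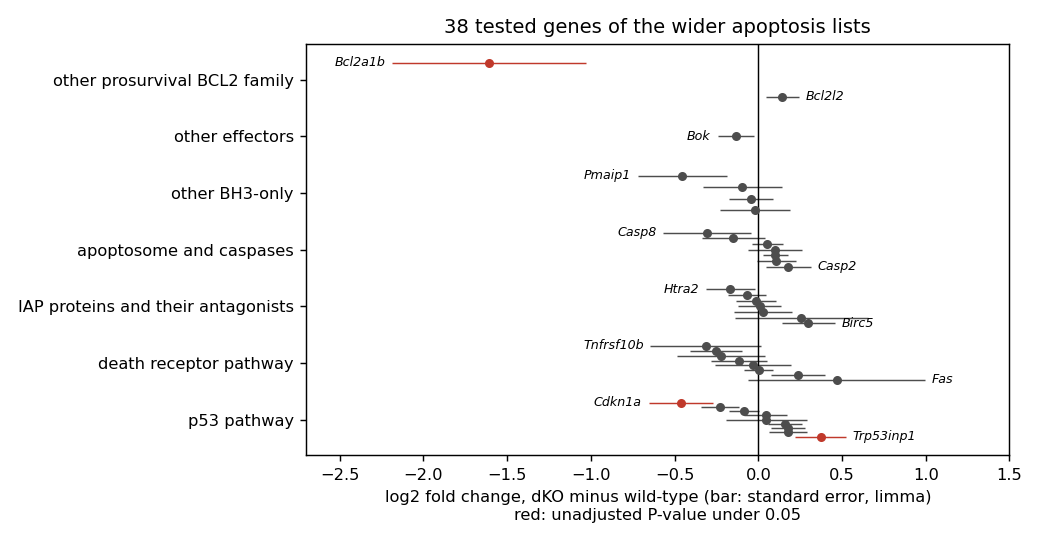
The log2 fold change (dKO minus wild-type) and its standard error from limma are plotted for the 38 tested genes in 7 role groups, with the names of the genes with the largest rise and the largest fall in each group and of genes with an unadjusted P-value under 0.05 (red). The 3 red points are *Bcl2a1b* at -1.61, *Cdkn1a* at -0.46 and *Trp53inp1* at 0.37, and the others lie on both sides of 0.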

How the data were processed

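PolyA-selected RNA of E18.5 cortex (TruSeq Stranded mRNA kit) was sequenced from 3 wild-type and 3 dKO samples. The submitters' processing notes name FastQC, STAR 2.7.5a, SAMtools, Picard, DESeq2 and the build mm10, and the genes are those of the FAST database. The counting program and its strand setting are not given in the sources used here. The table deposited by the authors holds a signal: the read count of each feature divided by the DESeq2 size factor of its library. Dividing each library by the value of 1 read gave whole reads for 100% of its values (tolerance 0.001), 31837922 to 40896541 per library, of which 8.48% to 9.62% lay in features with no symbol.

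The genes and lists were chosen with earlier results of these data known, and are named by this rule: all 9 members, the targeted genes, in each wider group the largest rise and the largest fall and any gene with an unadjusted *P*-value under 0.05, and the 3 closest profiles to *Bcl2l1*. *Phlda3*, some features at the same loci and copies of *Bcl2a1b* fall outside the rule and were named after their values were seen. The 3 columns of each genotype were matched to the labels by title. Features with a mean of at least 10 (18970) were tested for genotype with limma 3.58.1 (trend and robust options) in R 4.3.3 on log2(normalized count + 1), with Benjamini-Hochberg adjustment over all of them and a threshold of 0.05. Fold changes on this scale understate those of low genes. edgeR 4.0.16 and DESeq2 1.42.0 on recovered reads, other pseudocounts, filters and normalizations, a length correction, a replicate block and left-out libraries were the alternatives. The limma fit with its main options, the length correction, edgeR and DESeq2 were tested on simulated data, and the other alternatives were not. The simulated libraries held no relation to exonic length, so they could not show whether the length correction removes one. Exonic lengths and sequences came from GENCODE M21. Same-numbered libraries showed no strong shared deviation from their genotype means (correlations 0.098, -0.228 and -0.079). These correlations cannot show that the samples were unpaired, and both libraries numbered 1 shared a positive relation to exonic length. A result on 1 gene of the wider lists is not reported here.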

Additional observations from a re-analysis of the deposited data

How the results depend on the processing

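All 20 alternatives called 0 of the 9 genes, with adjusted *P*-values no lower than 0.403, or 0.277 with 1 library left out. The number of features called over the whole table moved from 19 to 9 with the length correction (13974 features with a length), 7 with limma without its trend and robust options, 202 with DESeq2, 5 without both libraries numbered 1, and 7 to 46 with 1 library left out (7 without dKO 3, 8 without wild-type 1, 10 without wild-type 3, 32 without wild-type 2 and 46 without dKO 1). It was 30 at an adjusted *P*-value under 0.1 and 2181 at an unadjusted *P*-value under 0.05. With the replicate block it was 9, of which 8 were among the 19. The block called 0 of the 9 genes and 0 of the 38 tested genes of the wider lists, and at an unadjusted *P*-value under 0.05 it gave 4 of the 38 in place of 3. In the wider lists the count went from 0 to 3 at an unadjusted *P*-value under 0.05.

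With 1 library left out, 1 to 3 of the 9 genes did not overlap, while 22.3% to 33.0% of all features did not. *Bak1* was joined by *Bbc3* without wild-type 2, *Casp9* without wild-type 3, *Bax* and *Bad* without dKO 1, *Bcl2l1* without dKO 2 and *Bcl2* without dKO 3. The log2 fold change turned sign for *Mcl1* under quantile normalization (-0.0244). Without both libraries numbered 1 it turned for *Bcl2l11* (-0.0825), *Bbc3* (0.0039) and *Casp9* (-0.0494). With 1 library left out it ranged from -0.0057 to 0.20 for *Bcl2l11*, from -0.16 to 0.00094 for *Bbc3*, from -0.0116 to 0.16 for *Casp9* and from -0.0326 to 0.97 for *Fas*. *Khdrbs3* had an adjusted *P*-value of 0.0891 in limma without its trend and robust options. The cause of these moves was not tested. With 3 libraries per genotype and a median standard error of 0.157 over all features, small changes were not detectable.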
